A study of Mus musculus with 6 samples.

Results

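The genes described here are 107 RNA-binding and splicing regulators among the 15703 genes of an RNA-seq table from newborn mouse neocortex. They were taken by symbol alone, from 11 families: Rbfox, Nova, Elavl, Ptbp, Mbnl, Celf, Srsf, Hnrnp, Sf3 (Sf3a and Sf3b), Ints and numbered Rbm genes. The families were chosen with earlier results of these data known. Within them no measured level was used to keep or drop a gene. All 107 were kept, including 2 whose mean level was below 1 FPKM (fragments scaled by transcript length and library size). The tested animals were conditional knockouts (cKO) of the transcription factor Tcf4 with the genotype Tcf4 f/f; Emx1Cre/+, and they were set against wild-type animals (WT), for which the labels name no allele. Both groups were C57BL/6, were taken at postnatal stage 0 (P0), and comprised 3 neocortex libraries each. The titles carry a different code for each library and do not say that these are different animals or litters, so p-values measure the spread between these 6 libraries, which may in part be technical. Emx1-Cre acts in dorsal telencephalic progenitors and their descendants, chiefly excitatory neurons and later glia. Interneurons that migrate in from ventral sources, microglia and vessel cells keep Tcf4, and the tissue was sequenced whole.

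RNA-binding proteins of these families decide which exons a transcript keeps, where it ends and how long it lasts. SR proteins (Srsf) mostly favour the use of an exon to which they bind, hnRNP proteins often oppose it, and the Sf3a and Sf3b subunits belong to the U2 small nuclear ribonucleoprotein that recognises the branch point. In developing cortex, neuronal splicing depends on Rbfox, Nova, Elavl and Celf proteins and on the replacement of Ptbp1 by Ptbp2 as progenitors become neurons, while the Integrator complex (Ints) cleaves small nuclear RNAs and short nascent transcripts at RNA polymerase II.

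By the whole-read steps in low FPKM values, the values had been scaled to library sizes of about 23202000 to 26073500. The reads recovered over all genes with GENCODE exon lengths summed to 25345900 to 28756700, more than that size in each library, so depth is known approximately. Tcf4 was at 56.5, 60.6 and 55.3 FPKM in cKO neocortex, against 71.2, 75.6 and 75.3 FPKM in WT neocortex, a fall of 0.36 on the log2 scale (limma adjusted p = 0.00411). Ddx3y, a Y-linked gene, was at 14.7 FPKM in cKO library 3 and at 16.1 FPKM in WT library 1, and at 0.025 FPKM or less in the other libraries, so each group held 1 such library. Beside the neocortex label, 7 cortical excitatory identity genes had summed levels of 706 to 746 FPKM in cKO neocortex and 667 to 714 FPKM in WT neocortex. The lowest of the 7 averaged 11.2 FPKM, against a median of 5.47 FPKM over all genes. None was at 0 in any library, but only 9 of all 15703 genes were, so that does not check the label.

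Of the 107 genes, 14 were higher and 4 were lower in cKO neocortex, and 89 did not pass the test. The threshold was an adjusted p under 0.05 from limma on log2(FPKM + 1), adjusted over all 15703 genes, and every log2 change below is on that scale, which understates the change of genes with low levels. The share called was 16.8%, against 15.8% of all genes and 14.6% of protein-coding genes. By direction, 13.1% of the regulators were higher and 3.74% lower, against 7.22% higher and 8.59% lower among all genes and 7.1% higher and 7.48% lower among protein-coding genes. As the families were chosen with earlier results known, these shares are descriptions. The median log2 change was 0.06 over the 107 regulators and 0.0017 over all genes. Groups did not overlap for 43 of the 107 (40.2%), of which 32 lay higher and 11 lower in cKO neocortex, against 37.3% of all genes, 18.5% higher and 18.7% lower.

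The genes that rose were Rbm12b2, Elavl4, Rbm12b1, Celf4, Ints8, Rbm41, Celf6, Rbm5, Ints4, Ints12, Nova1, Ints13, Rbm20 and Srsf10, in order of log2 change. Those that fell were Rbm43, Rbm24, Rbfox3 and Hnrnpdl. All of these changes were moderate, with sizes between 0.27 and 0.69 on the log2 scale. Their median size was 0.43, against 0.41 over all 2483 called genes. The regulators are mostly well expressed: 92 of the 107 lay above the median level of the table and 71 averaged at least 10 FPKM. Among the 89 that were not called, log2 changes ran from -0.20 to 0.28, and the median half-width of their 95% confidence intervals was 0.16.

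**Figure D1:**
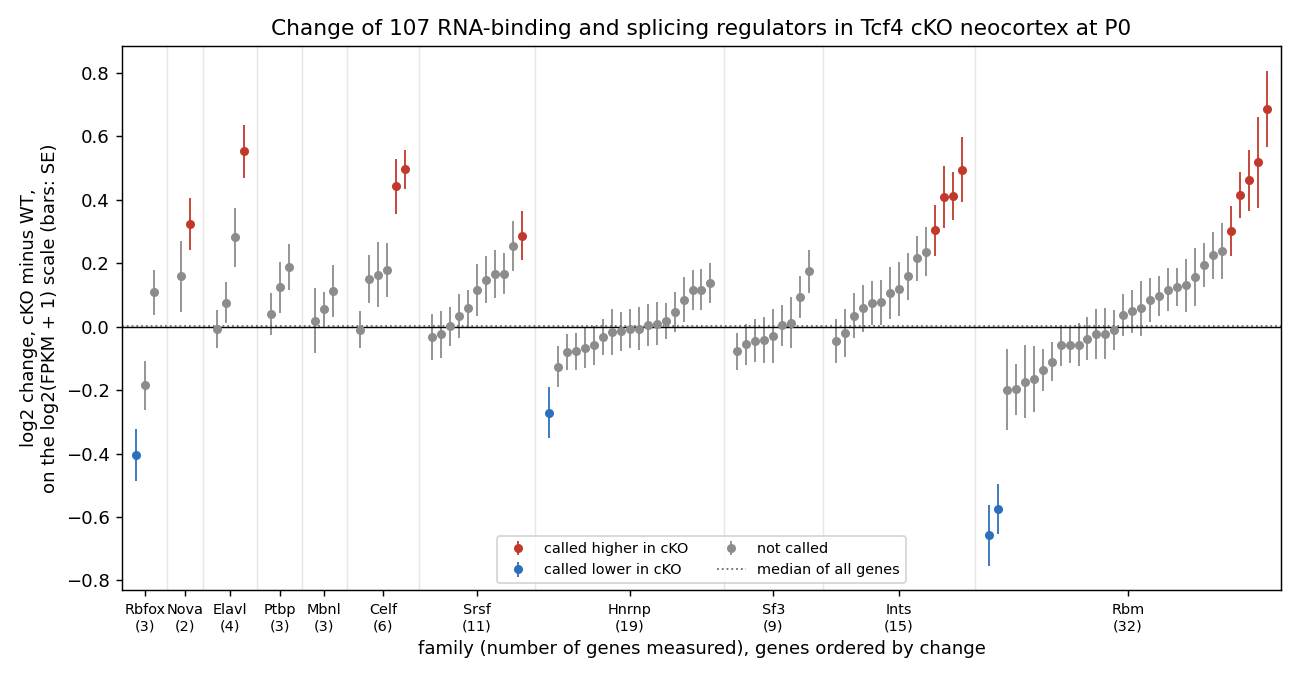
Log2 change in cKO minus WT neocortex for each of the 107 genes (vertical axis, on the log2(FPKM + 1) scale), grouped by family along the horizontal axis, with bars for the standard error. Red points are the 14 genes called higher, blue points the 4 called lower and grey points the 89 not called; the Hnrnp and Sf3 genes cluster around 0, and the widest spread, -0.66 to 0.69, is in the Rbm family.

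How far single libraries carried these calls differed between genes. In fits that left out 1 library at a time, 10 of the 18 genes kept the call in all 6 fits: Celf4, Celf6, Elavl4, Ints4, Ints8, Rbm12b2 and Rbm5 among the genes that rose, and Rbfox3, Rbm24 and Rbm43 among those that fell. The number of regulators called higher was 9 without cKO library 2, 9 without cKO library 3, 7 without WT library 1 and 17 without WT library 2. Without the pair of libraries with Y-linked reads, cKO 3 and WT 1, an alternative chosen after seeing the data that leaves 2 libraries a group, 4 were higher (Celf4, Celf6, Elavl4 and Rbm12b2) and 2 lower (Rbm24 and Rbm43). All genes fell in number together with them, to 369 higher and 624 lower.

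**Figure D2:**
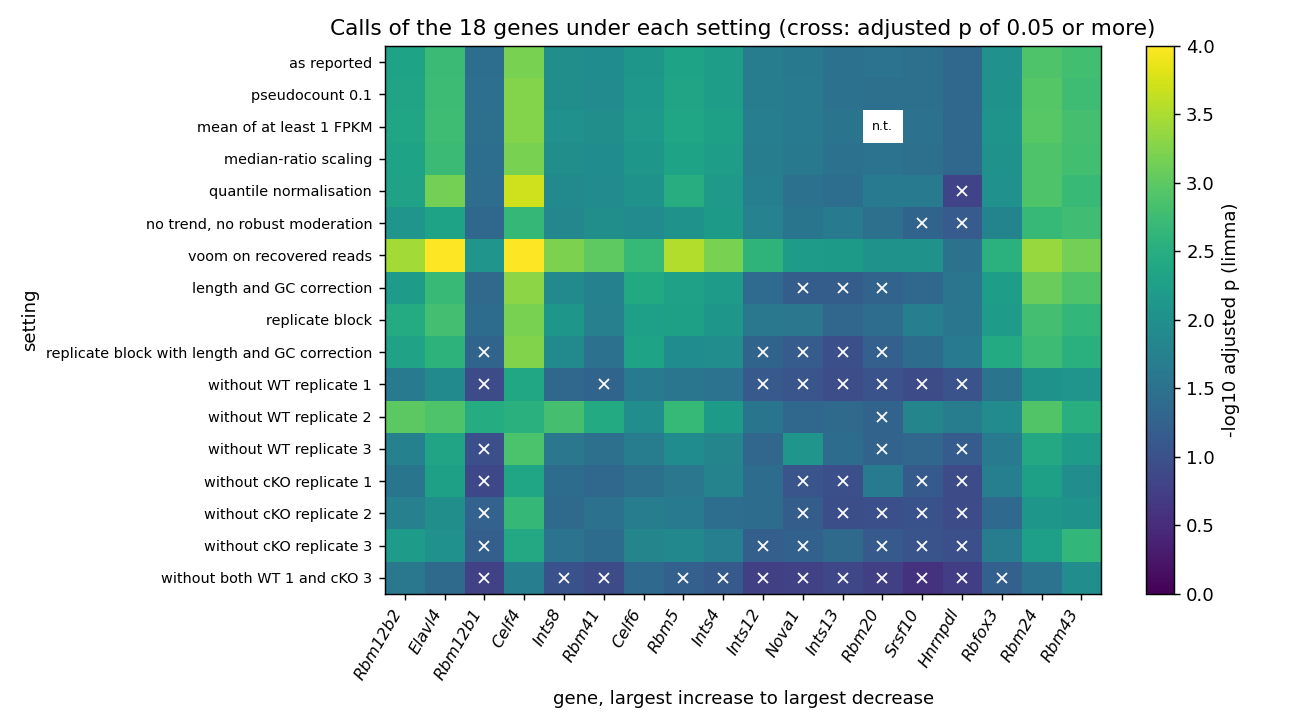
Strength of the call, as -log10 of the limma adjusted p (colour), for the 18 genes called as reported (columns, from the largest increase to the largest decrease) under each alternative (rows). Crosses mark an adjusted p of 0.05 or more and n.t. a gene not tested under that filter; Celf4, Celf6, Elavl4, Rbm12b2, Rbm24 and Rbm43 have no cross.

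Tcf4 is a basic helix-loop-helix protein that binds E-boxes, short sites of the form CANNTG. The promoters of 6 called genes are printed below, the 3 genes that fell most and the 3 that rose most among those whose promoter was at hand and could be shown. Each is the 250 bases before the first RefSeq start listed for the gene, on the gene's own strand (GRCm38.p6), with every CANNTG match in capitals (the motif is its own reverse complement, so 1 search covers each strand).
Rbm43 (chr2:51935164-51935413, minus strand): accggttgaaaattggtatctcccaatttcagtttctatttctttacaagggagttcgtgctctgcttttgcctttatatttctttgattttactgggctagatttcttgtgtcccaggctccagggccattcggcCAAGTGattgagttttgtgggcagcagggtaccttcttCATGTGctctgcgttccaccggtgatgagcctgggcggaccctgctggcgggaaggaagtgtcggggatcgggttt
Rbm24 (chr13:46418050-46418299, plus strand): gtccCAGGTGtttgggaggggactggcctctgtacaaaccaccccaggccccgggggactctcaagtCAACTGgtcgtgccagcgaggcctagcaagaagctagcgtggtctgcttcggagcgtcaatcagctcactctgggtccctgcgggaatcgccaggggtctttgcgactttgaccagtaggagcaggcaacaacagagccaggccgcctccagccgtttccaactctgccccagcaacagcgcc
Rbfox3 (chr11:118761042-118761291, minus strand): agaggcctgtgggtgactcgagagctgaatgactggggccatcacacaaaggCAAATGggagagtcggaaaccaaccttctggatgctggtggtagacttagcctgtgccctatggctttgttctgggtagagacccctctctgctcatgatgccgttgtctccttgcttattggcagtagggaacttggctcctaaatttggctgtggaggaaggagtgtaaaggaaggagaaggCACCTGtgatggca
Elavl4 (chr4:110351912-110352161, minus strand): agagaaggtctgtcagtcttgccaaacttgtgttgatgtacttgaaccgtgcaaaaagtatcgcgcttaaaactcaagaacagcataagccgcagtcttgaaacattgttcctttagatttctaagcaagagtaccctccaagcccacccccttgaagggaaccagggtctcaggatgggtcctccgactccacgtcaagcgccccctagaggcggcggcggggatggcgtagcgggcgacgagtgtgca
Rbm41 (chrX:139998596-139998845, minus strand): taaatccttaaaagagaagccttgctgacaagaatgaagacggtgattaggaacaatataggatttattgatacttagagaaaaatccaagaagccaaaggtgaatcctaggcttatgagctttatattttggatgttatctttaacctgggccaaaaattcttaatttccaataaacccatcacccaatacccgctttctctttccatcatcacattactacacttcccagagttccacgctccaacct
Celf6 (chr9:59578087-59578336, plus strand): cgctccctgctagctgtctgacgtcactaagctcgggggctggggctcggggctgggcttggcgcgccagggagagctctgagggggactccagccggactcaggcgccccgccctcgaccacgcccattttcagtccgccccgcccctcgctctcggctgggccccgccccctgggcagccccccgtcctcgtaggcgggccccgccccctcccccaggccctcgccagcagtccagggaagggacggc
In these windows the 3 genes that fell held 2 matches each, and the 3 that rose held none. This rests on which start is used: the other RefSeq windows held 3, 3 and 1 matches for Elavl4, 2 for Celf6 and 1 for Rbm43. The Rbfox3 start shown lies 150556 bases inside the GENCODE gene, counted from its 5′ end, and the Celf6 start 420 bases inside. Which start these libraries used was not tested. Over all regulators with a RefSeq window, 89 of 107, and with the first window of each, CANNTG was found in 56.2%, against 66% of the 27025 promoters of the table. For 70 of the 89, the bases just after the start were found in a GENCODE transcript of the gene. It was found in 2 of 9 called higher, in 3 of 4 called lower and in 59.2% of the 76 not called. A match describes letters in the window and is not a binding site.

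Rbfox proteins bind UGCAUG in introns and decide whether nearby exons are kept in neurons. Rbfox3, the protein known as the neuronal marker NeuN, was lower in cKO neocortex. It was at 15.2, 12.8 and 14.8 FPKM in cKO libraries, against 18.5, 18.2 and 20.7 FPKM in WT libraries. Every cKO value was below every WT value, and the log2 change was -0.40 ± 0.081 (SE) at a limma adjusted p of 0.00931. Rbfox1 averaged 59.7 ± 3.66 FPKM in cKO libraries and 68.1 ± 6.01 FPKM in WT libraries (SD, n = 3 each), with overlapping groups and a limma adjusted p of 0.13. Rbfox2, the family member with the highest level, had 135, 129 and 126 FPKM in cKO libraries and 122, 130 and 110 FPKM in WT libraries, and its groups also overlapped (limma adjusted p = 0.325). Only the first of these 3 genes passed the test, and differences between the 3 changes were not tested. Beside Rbfox3, 2 of 7 general neuron markers were called lower and none higher, where all genes gave 8.59% lower and 7.22% higher. Log2 changes were below 0 for 5 of the 7 and above 0 for 2. The summed levels were 1855 to 1921 FPKM in cKO libraries and 2065 to 2070 FPKM in WT libraries. The most abundant of the 7 alone averaged 969 FPKM over all libraries. Without cKO library 2, 1 of the 7 was lower. Their part in the result was not tested, and in whole tissue fewer cells of a type and less RNA per cell cannot be told apart.

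Nova proteins bind clusters of YCAY and shape synaptic transcripts. Nova1 was higher in cKO neocortex, at 8.45, 7.96 and 8.07 FPKM in cKO libraries against 6.12, 5.80 and 7.08 FPKM in WT libraries. The groups did not overlap, and the log2 change was 0.32 ± 0.081 (SE, limma adjusted p = 0.024). That call was lost without each cKO library in turn and without WT library 1 (limma adjusted p up to 0.0884), and with a correction for exon length and GC content (0.066), over a range of 0.00627 to 0.166 with all alternatives counted. Nova2, at 37.9, 36.6 and 35.7 FPKM in cKO libraries against 34.7, 38.2 and 26.6 FPKM in WT libraries, did not pass the test, and 30.8% of its 50-base words also occur in another gene.

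Of the Elavl family, Elavl4 (HuD), a neuronal protein that binds AU-rich stretches and keeps transcripts of growing neurons stable, was higher in cKO neocortex. It reached 39.9, 44.0 and 45.3 FPKM in cKO libraries, against 28.2, 32.4 and 26.7 FPKM in WT libraries. The lowest cKO value lay above the highest WT value, and cKO was 1.48 times WT on FPKM (log2 change 0.55 ± 0.082, SE, limma adjusted p = 0.00190). Elavl2 (HuB) had 30.6, 35.1 and 36.3 FPKM in cKO libraries against 25.8, 31.7 and 25.9 FPKM in WT libraries; 1 WT value lies among the cKO values, and the limma adjusted p was 0.0675. Elavl2 was called higher with quantile normalisation (0.0447), with voom on recovered reads (0.0181) and without WT library 2 (0.0159), over a range of 0.0159 to 0.398 with all alternatives counted. Elavl3 (HuC), the most abundant of the family, had a log2 change of -0.01 with a 95% interval of -0.14 to 0.12, which turned positive under 5 alternatives. Elavl1 (HuR), which most cell types express, had 15.1, 15.8 and 15.6 FPKM in cKO libraries and 14.8, 15.3 and 13.9 FPKM in WT libraries, and was not called. The 3 neuronal Hu genes thus gave log2 changes of 0.55, 0.28 and -0.01 in the same libraries.

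None of the Ptbp or Mbnl genes passed the test. Ptbp1, the repressor of neuronal exons found in progenitors, had 11.7, 13.3 and 12.7 FPKM in cKO libraries against 10.7, 10.5 and 11.6 FPKM in WT libraries. These groups did not overlap, but the limma adjusted p was 0.11. Ptbp2, the form that takes its place in neurons, averaged 44.8 ± 1.08 FPKM in cKO libraries and 43.6 ± 3.16 FPKM in WT libraries (SD, n = 3 each), and its log2 change of 0.04 had a 95% interval of -0.11 to 0.19. Beside Ptbp1, 2 of 10 radial glia and progenitor markers were higher and 1 lower, and 2 of 7 dividing-cell markers were higher. Over all genes, 7.22% were higher and 8.59% lower. Radial glia and progenitor sums were 384 to 494 FPKM in cKO libraries and 584 to 599 FPKM in WT libraries. Fabp7, the marker that was lower, averaged 312 FPKM in cKO and 454 FPKM in WT libraries and made up most of these sums. Its log2 change was -0.55. The markers that were higher, Eomes and Neurog2, had log2 changes of 0.73 and 0.75 (limma adjusted p = 0.00165 and 0.00359). The calls of Fabp7, Eomes and Neurog2 held whichever single library was left out. Log2 changes were above 0 for 6 of the 10 markers and below 0 for 4. Dividing-cell sums were 62.4 to 77.2 FPKM in cKO libraries and 60.2 to 65.5 FPKM in WT libraries, which overlap. No dividing-cell marker was called without cKO library 2, cKO library 3, WT library 1 or WT library 3, and 4 were without cKO library 1. The part of these cells in the Ptbp1 values was not tested. Ptbp3 averaged 5.62 FPKM in cKO libraries and 5.06 FPKM in WT libraries. The Mbnl proteins promote the adult splicing pattern, and transcripts of each averaged under 10 FPKM. Mbnl1 averaged 2.97 FPKM in cKO and 2.67 FPKM in WT libraries. Mbnl2 averaged 5.63 FPKM in cKO and 5.57 FPKM in WT libraries, near the median of 5.47 FPKM over all genes. Mbnl3 was the lowest of the 107 genes at 0.111 FPKM in cKO and 0.068 FPKM in WT libraries.

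Celf4 and Celf6 rose, and the other Celf genes were not called. That is 2 of 6 genes higher (33.3%), against 7.22% of all genes. Celf proteins bind GU-rich stretches; Celf4 is a neuronal member that binds many synaptic messages, and its loss in mice leads to seizures. Celf4 was at 122, 112 and 123 FPKM in cKO libraries, against 84.4, 84.6 and 82.7 FPKM in WT libraries. The WT values lay within 2 FPKM of each other, and the log2 change of 0.50 ± 0.06 had the smallest adjusted p of the 107 genes (SE, limma adjusted p = 0.000627). Celf6 had 11.4, 9.62 and 9.57 FPKM in cKO libraries against 7.56, 7.51 and 6.60 FPKM in WT libraries, without overlap (log2 change 0.44 ± 0.086, SE, limma adjusted p = 0.00777). Both calls held in every fit that was run. Celf5 averaged 45.2 FPKM in cKO and 40.6 FPKM in WT libraries and Celf3 42.7 FPKM in cKO and 37.5 FPKM in WT libraries, with limma adjusted p-values of 0.197 and 0.171. Celf2 (log2 change -0.01) and Celf1 (0.16) were not called either. Summed over the 6 genes, Celf transcripts stood at 273 to 297 FPKM in cKO libraries and 225 to 239 FPKM in WT libraries, and Celf4 alone makes up most of that gap. Celf4 and Tcf4 lie on the same chromosome, 18, but far apart, at 25477632-25754157 and 69343356-69689079 (mm10).

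**Figure D3:**
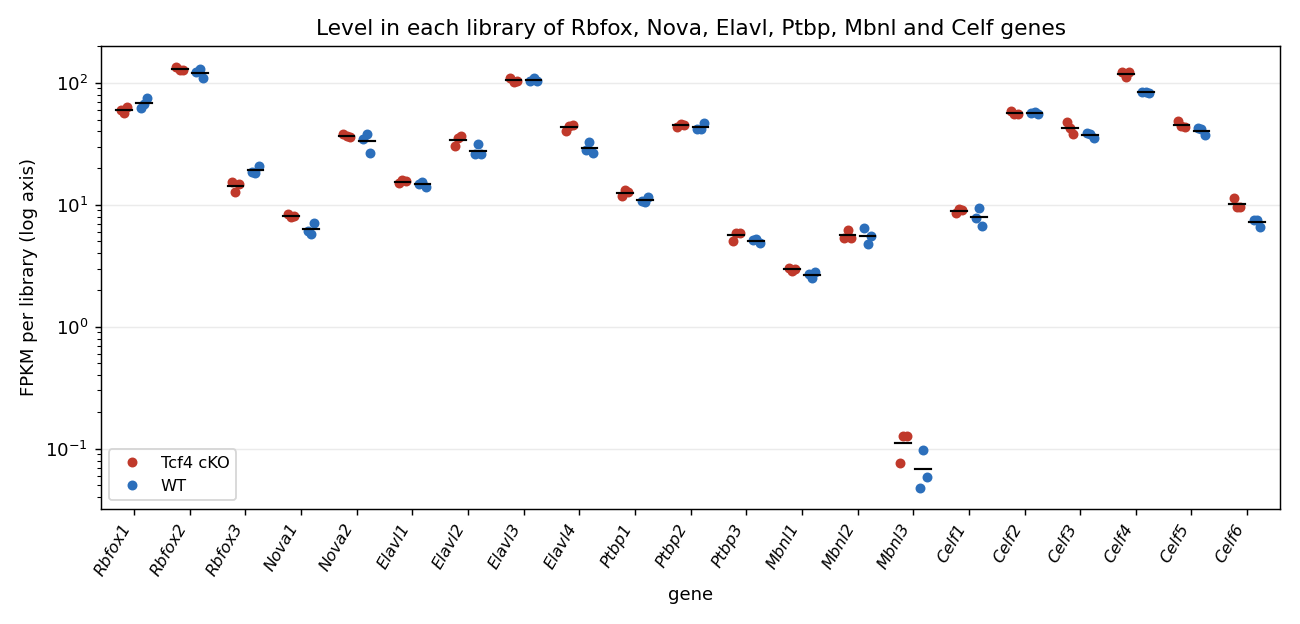
FPKM in each library (points, log axis) of the 21 Rbfox, Nova, Elavl, Ptbp, Mbnl and Celf genes, with cKO in red left of WT in blue and a bar at each group mean (n = 3 each). Rbfox3 is the gene with all cKO points below WT, while Nova1, Elavl4, Celf4 and Celf6 have all cKO points above WT with a called difference.

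Among the 11 SR protein genes, 1 was called (9.09%), against 15.8% of all genes. Srsf10, an atypical SR protein that acts as a repressor when dephosphorylated, was higher, at 31.3, 32.2 and 33.1 FPKM in cKO libraries against 23.4, 28.7 and 26.8 FPKM in WT libraries. The groups did not overlap (log2 change 0.29 ± 0.078, SE, limma adjusted p = 0.0337). That call was lost without each cKO library in turn, without WT library 1 and without the trend and robust options (0.0508), and 10.3% of its words are shared with another annotated gene. Its adjusted p ranged from 0.00914 to 0.262 over all alternatives. Srsf7, the most abundant of the family, had 93.1, 93.8 and 106 FPKM in cKO libraries and 80.5, 91.2 and 89.3 FPKM in WT libraries, without overlap but not called (limma adjusted p = 0.158), except with quantile normalisation (0.0202). Srsf4 was the family member with the lowest change, at -0.03. Summed SR protein transcripts, 481 to 504 FPKM in cKO libraries and 434 to 484 FPKM in WT libraries, overlapped between the groups.

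The hnRNP genes, general splicing and packaging factors, gave the highest summed level of the 11 families, at 1519 to 1567 FPKM in cKO libraries and 1556 to 1631 FPKM in WT libraries. Of 19 genes, all with a mean of at least 10 FPKM, none was higher and 1 was lower (5.26%). Over all genes, 7.22% were higher and 8.59% lower. The log2 changes of the 19 ran from -0.27 to 0.14 with a median of -0.006. The gene called lower was Hnrnpdl, an A/U-rich element binding relative of Hnrnpd. It was at 92.7, 93.1 and 91.7 FPKM in cKO libraries against 109, 102 and 127 FPKM in WT libraries. The cKO values were nearly equal and the WT values spread, and the limma adjusted p of 0.0469 lay just under the threshold. The call was kept without WT library 2 and lost without any other single library, and it was also lost with quantile normalisation (0.157) and without the trend and robust options (0.0701), over a range of 0.0213 to 0.183 with all alternatives counted. Hnrnpa0 had the highest level of all 107 genes, at 218, 213 and 225 FPKM in cKO libraries and 227, 232 and 235 FPKM in WT libraries, and was not called (limma adjusted p = 0.352). Hnrnpr, with the highest log2 change of the family at 0.14, was not called either (0.163).

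None of the 9 Sf3a and Sf3b genes was called, against 15.8% of all genes, and none was at any single-library omission or other alternative. Their log2 changes ran from -0.08 to 0.18, and their summed levels were 276 to 279 FPKM in cKO libraries and 277 to 287 FPKM in WT libraries. Sf3a1, a subunit of the U2 particle, had the highest change, at 20.2, 18.7 and 19.4 FPKM in cKO libraries against 16.9, 18.3 and 16.1 FPKM in WT libraries (limma adjusted p = 0.109). Sf3b2, the most abundant, averaged 86.4 ± 2.31 FPKM in cKO libraries and 91.2 ± 3.27 FPKM in WT libraries (SD, n = 3 each).

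Integrator subunits contributed 4 of the 14 genes that rose, out of 15 measured (26.7%), and none fell. Over all genes, 7.22% were higher and 8.59% lower. The Ints genes are long, with a median exon length of 7173 bases against 4229 bases over all genes. The part of length in their changes was not tested. Ints4, a scaffold of the module that cleaves RNA, had 6.65, 7.54 and 6.93 FPKM in cKO libraries against 4.89, 5.32 and 4.89 FPKM in WT libraries (log2 change 0.41 ± 0.076, SE, limma adjusted p = 0.00602). Ints8, which ties the phosphatase PP2A to the complex, had 6.85, 7.19 and 6.91 FPKM in cKO libraries against 4.41, 5.66 and 4.04 FPKM in WT libraries (0.49 ± 0.1, SE, limma adjusted p = 0.0104). For each of these genes the lowest cKO library exceeded the highest WT library, and the calls held whichever single library was left out. Ints12, a subunit with a PHD finger, had 2.40, 2.42 and 3.14 FPKM in cKO libraries against 1.66, 1.83 and 1.74 FPKM in WT libraries (0.41 ± 0.099, SE, limma adjusted p = 0.0208). Ints13, of the module with Ints10 and Ints14, had 4.87, 4.74 and 4.31 FPKM in cKO libraries against 3.34, 3.61 and 3.75 FPKM in WT libraries (0.30 ± 0.081, SE, limma adjusted p = 0.0307). These groups did not overlap either, but the Ints12 call was lost without cKO library 3 or WT library 1 and the Ints13 call without cKO library 1, cKO library 2 or WT library 1, so that 2 subunits were called without WT library 1. The Ints13 call was also lost with the exon length and GC correction (adjusted p 0.0652, range over all alternatives 0.00662 to 0.14). Ints11, the endonuclease itself, had 9.77, 10.01 and 10.4 FPKM in cKO libraries and 10.3, 9.90 and 11.1 FPKM in WT libraries, which overlap (log2 change -0.05, 95% interval -0.20 to 0.11). Ints3, the most abundant subunit, averaged 17.1 FPKM in cKO and 15.7 FPKM in WT libraries and was not called. Summed over the complex, levels were 131 to 133 FPKM in cKO libraries and 116 to 123 FPKM in WT libraries, without overlap. Among single subunits, 7 of the 15 lay higher in cKO neocortex without overlap and none lower. Over all genes, 18.5% lay higher and 18.7% lower without overlap.

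The Rbm genes share a naming scheme and an RNA recognition motif rather than a function. Of 32 measured, 5 rose (15.6%) and 2 fell (6.25%), against 7.22% higher and 8.59% lower over all genes. Rbm24, which steers muscle and heart splicing and is little studied in cortex, was at 5.80, 5.18 and 5.49 FPKM in cKO libraries, against 8.97, 7.91 and 9.16 FPKM in WT libraries (log2 change -0.58 ± 0.079, SE, limma adjusted p = 0.00125). Rbm43 was at 1.27, 1.30 and 1.66 FPKM in cKO libraries against 2.74, 2.60 and 3.03 FPKM in WT libraries, 1.98-fold lower in cKO on FPKM (-0.66 ± 0.095, SE, limma adjusted p = 0.00164). For each gene the highest cKO library lay below the lowest WT library, and the calls held in every fit. Rbm5, a splicing regulator of apoptosis genes such as FAS in human cells, rose to 23.8, 23.0 and 22.4 FPKM in cKO libraries, against 16.2, 18.8 and 16.2 FPKM in WT libraries (0.42 ± 0.073, SE, limma adjusted p = 0.00481). Rbm41, on the X chromosome, was at 3.79, 3.56 and 3.84 FPKM in cKO libraries against 2.22, 2.91 and 2.22 FPKM in WT libraries (0.46 ± 0.097, SE, limma adjusted p = 0.0115). Its libraries with Y-linked reads gave the highest cKO value and 1 of the lower WT values, and the call was lost without WT library 1 (adjusted p 0.0517) and without both cKO 3 and WT 1 (0.124, the highest of all alternatives, the lowest being 0.000975). Rbm20, the regulator of titin splicing in heart, was named after its values were seen, as the 1 called gene outside the naming rule. It had 0.716, 1.03 and 0.915 FPKM in cKO libraries against 0.509, 0.508 and 0.566 FPKM in WT libraries (limma adjusted p = 0.0296), and its call was kept only without cKO library 1 among the fits that left out a library. Rbm39, the most abundant Rbm gene and a relative of the splicing factor U2AF, averaged 53.2 FPKM in cKO and 53.7 FPKM in WT libraries, a log2 change of -0.01. The family as a whole had 3 genes called higher without cKO library 2, cKO library 3 or WT library 3, and 2 without WT library 1. In the same fits, 578, 840, 801 and 544 of all genes were higher, against 1134 with all 6 libraries.

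**Figure D4:**
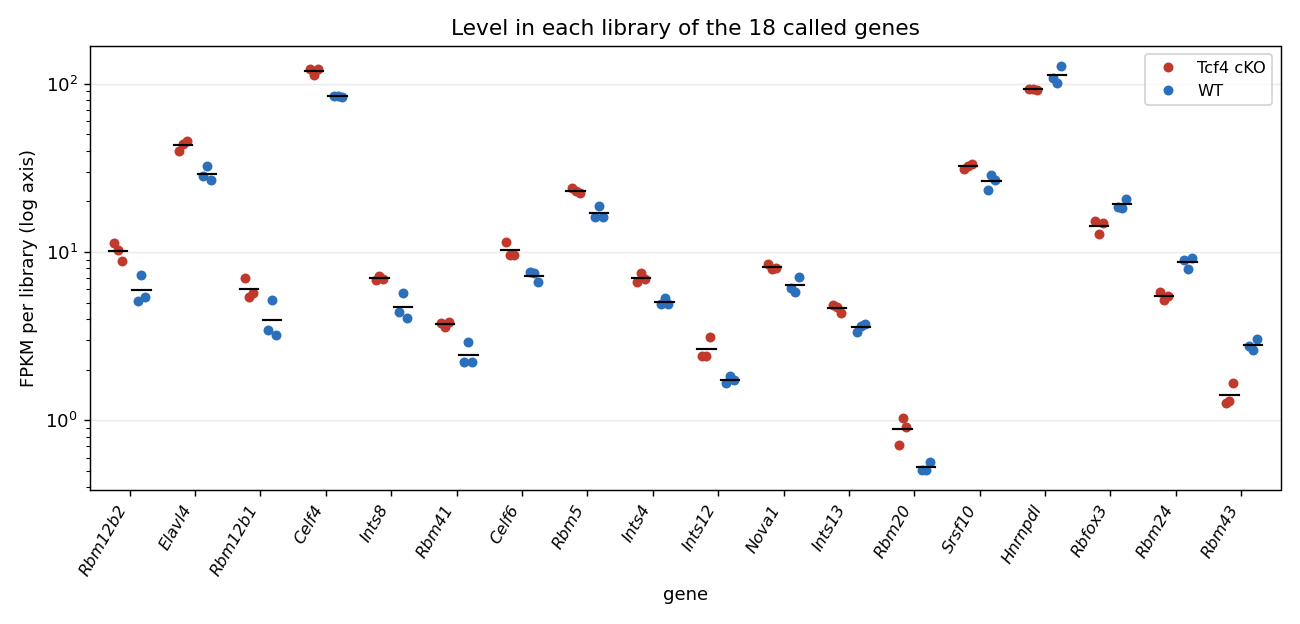
FPKM in each library (points, log axis) of the 18 called genes, ordered from the largest increase to the largest decrease, with cKO in red left of WT in blue and a bar at each group mean (n = 3 each). No cKO point overlaps a WT point of the same gene; the closest are Rbm12b1, with 5.42 FPKM in the lowest cKO and 5.18 FPKM in the highest WT library.

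Rbm12b2 and Rbm12b1 are neighbouring copies on chromosome 4 and showed the highest and the third highest log2 change. Rbm12b2 (chr4:12089439-12096243, plus strand, mm10) had 11.2, 10.2 and 8.87 FPKM in cKO libraries against 5.14, 7.28 and 5.38 FPKM in WT libraries (log2 change 0.69 ± 0.12, SE, limma adjusted p = 0.0048). Rbm12b1 (chr4:12140264-12146731, plus strand, mm10) had 6.96, 5.42 and 5.67 FPKM in cKO libraries against 3.43, 5.18 and 3.23 FPKM in WT libraries (0.52 ± 0.14, SE, limma adjusted p = 0.0359). WT library 2 was the highest WT library for each, and the Rbm12b1 call was lost without any library other than WT 2 (adjusted p up to 0.136, and from 0.00332 to 0.171 over all alternatives). The copies share much sequence: 56.6% of the 50-base words of Rbm12b2 and 60.8% of those of Rbm12b1 also occur in another gene, mostly in the other copy, so the way reads were divided between them is uncertain. Ints8 lies on the same stretch (chr4:11199158-11254258, minus strand, mm10). From Ints8 to Rbm12b1, a window of 948 kb chosen after the values were seen, 5 of 13 measured genes were called higher and none lower. Over all genes, 7.22% were called higher. Ints8, Rbm12b2 and Rbm12b1 set the window and are in its count, so the count is a description only. The other 2 of these 5 were Pdp1 (log2 change 0.28) and Tmem67 (0.36), and Tmem67 overlaps the start of Rbm12b2 on the opposite strand. Reads of overlapping genes cannot be told apart without strand, which the sources used here do not give.

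Some properties of the libraries moved with the genes that rose. WT library 2 was the highest WT library in 10 of the 14 called higher, and in 58.5% of all 1134 genes called higher in the table. Exon length also went along with the change. Over 15661 genes with an annotated exon length, the Spearman correlation of length with log2 change was 0.231, and over the 107 regulators it was 0.300, given here as descriptions since genes share libraries and are not replicates. With all genes split into 5 classes of equal size by exon length, the share called higher, shortest class first, was 5.62%, 5.68%, 6.61%, 7.69% and 10.4%. The regulators are long, with a median exon length of 6466 bases against 4675.5 bases for protein-coding genes. Of the 14 that rose, 11 were in the 2 classes of longest exons, which held 32 and 35 of all 107 regulators. With levels corrected for exon length and GC content, 13 were higher and 4 lower; Nova1, Ints13 and Rbm20 lost the call and Rbm14 and Rbm45 gained one. The part of exon length in the remaining changes was not tested.

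**Figure D5:**
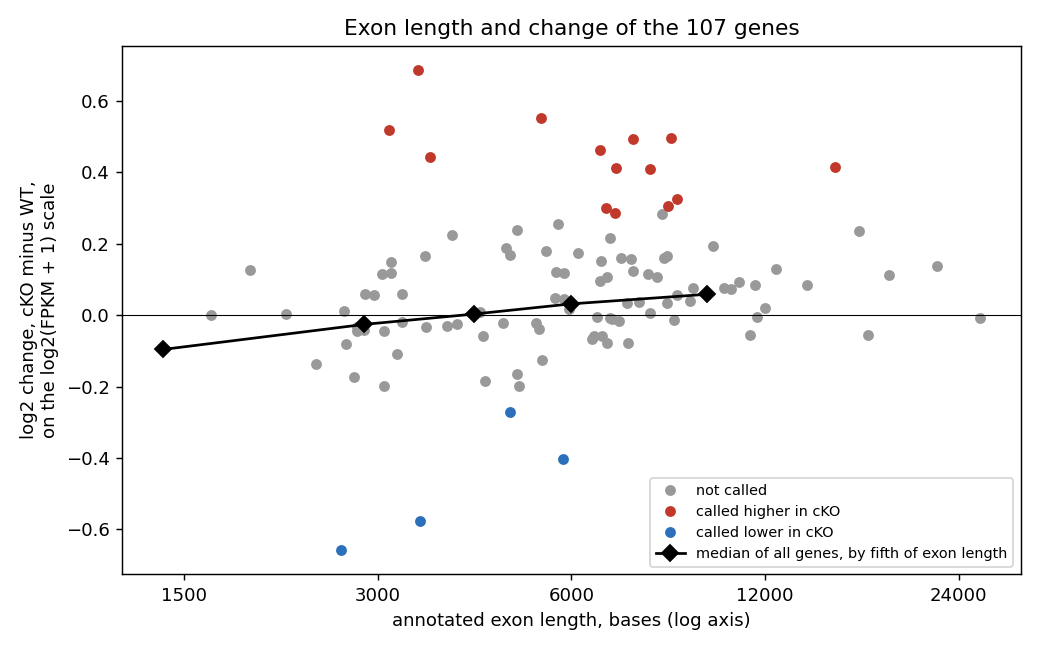
Log2 change in cKO minus WT neocortex (vertical axis, log2(FPKM + 1) scale) against annotated exon length in bases (log axis) for the 107 genes, coloured by call. Black diamonds are medians over all genes in 5 classes of exon length; the medians climb from -0.10 to 0.06, and the called genes lie away from that line on both sides.

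Markers of other cell types differed between the groups as well. Of the lists, 3 of 7 cortical excitatory identity genes, 4 of 9 interneuron, 6 of 7 astrocyte, 2 of 5 oligodendrocyte lineage and 4 of 8 microglia markers were lower, with none higher, and no endothelial (6), mural and fibroblast (7), erythroid (3) or choroid plexus (1) marker was called. Over all genes, 8.59% were lower and 7.22% higher. Summed astrocyte markers stood at 62.4 to 81.6 FPKM in cKO libraries and 107 to 138 FPKM in WT libraries. Microglial sums were 13.7 to 20.1 FPKM in cKO libraries and 23.5 to 27.4 FPKM in WT libraries. No marker on these lists was at 0 in any library, which held for all but 9 of the 15703 genes. These counts leaned on single libraries, with 5 or 6 astrocyte markers lower whichever was left out, but no cortical identity marker lower without cKO library 2, cKO library 3 or WT library 1. Interneuron markers numbered 1 without cKO library 1 or WT library 1 and 2 without cKO library 2 or WT library 3. Microglia markers numbered 2 without cKO library 1 or WT library 3 and 1 without WT library 1, and 1 oligodendrocyte lineage marker was lower without cKO library 1 or WT library 1. The part of any cell type in the changes of the RNA-binding genes was not tested.

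Other genes of RNA processing were taken in 3 lists of 142 genes, also chosen with earlier results of these data known. They gave 15 higher (10.6%) and 4 lower (2.82%), beside the 7.22% and 8.59% of all genes. Their median log2 change was 0.03, against 0.0017 over all genes. The regulators outside the spliceosome core made up most of these: 11 of 64 were higher and 3 lower. Tra2a, a partner of SR proteins at splicing enhancers, had 30.5, 31.8 and 32.0 FPKM in cKO libraries against 19.2, 25.3 and 19.7 FPKM in WT libraries (log2 change 0.54 ± 0.096, SE, limma adjusted p = 0.0048). Fubp1, Tia1 and Sfpq, which bind single-stranded DNA or RNA, U-rich introns and paraspeckle RNA, rose by 0.37, 0.34 and 0.35 on the log2 scale. Rbms1 fell to 3.44, 3.29 and 3.37 FPKM in cKO libraries, against 4.92, 5.64 and 5.64 FPKM in WT libraries (-0.55 ± 0.08, SE, limma adjusted p = 0.00166), and Ybx1 and Raver2 were called lower with log2 changes of -0.23 and -0.32. The snRNP and core spliceosome list gave 2 higher (Snrpf and Prpf4b) and 1 lower (U2af1) of 58, a share of 5.17% called with a median change of 9.9e-05. Of 20 genes of 3′ end processing, Papola (0.33) and Cpsf6 (0.27) were higher and none was lower. The list counts also moved with single libraries: over the 3 lists, 8 were called higher without cKO library 1, 8 without cKO library 2 and 7 without WT library 1, and 1 was called lower without any 1 of the cKO libraries or without WT library 1, against 7 lower without WT library 2.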

How the data were processed

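Total RNA of whole neocortex was extracted with Trizol and sequenced from TruSeq RNA libraries, per the labels' protocols. Reads were processed with bcl2fastq 1.8.4, STAR 2.5.4b, featureCounts 1.6.1, R 3.4.1 and DESeq2 1.22.1 on mm10, per the submitters' processing notes. The authors deposited FPKM values per gene and library, with 15703 genes; the sources used here do not state the gene lengths or annotation behind them. Values are whole multiples of 1 read over gene length: 94.8% to 96.0% of low values lay within 0.1 of a whole read at the recovered library sizes, against about 20.0% at other sizes.

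The 3 cKO and 3 WT libraries were compared with limma 3.58.1 (trend and robust options) in R 4.3.3 on log2(FPKM + 1), without a filter and with Benjamini-Hochberg adjustment over all genes at 0.05. Positions, exon lengths and GC come from GENCODE release 21 for mouse on mm10, which held 15661 of the genes. The families and lists were chosen with earlier results of these data known. Named are Tcf4, all genes of the 6 small families, the 12 largest called changes in each direction, per large family the highest level and the largest change in each direction, and up to 4 called genes per list and direction. Genes also named after their values were seen are Rbm14, Rbm20, Rbm45, Pdp1, Tmem67 and the Y-linked Ddx3y. Alternatives were a pseudocount of 0.1, a mean of at least 1 FPKM, median-ratio and quantile scaling, plain moderation, voom on recovered reads, a correction for exon length and GC, a replicate block, and leaving out each library. The scripts were tested on simulated data.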

Additional observations from a re-analysis of the deposited data

How the results depend on the processing

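None of the 18 called regulators changed direction under any alternative, and 10 kept the call without each single library. Leaving out 1 library at a time, between 7 and 17 regulators were higher and 3 to 4 lower, against 544 to 1572 higher and 830 to 1517 lower over all genes, and 7 to 19 higher and 1 to 7 lower in the 3 lists of RNA-processing genes. The low ends came without cKO library 1 (566 higher and 830 lower over all genes, 8 and 1 in the lists), without cKO library 2 (578 and 839 over all genes, 9 regulators higher, 8 and 1 in the lists), without cKO library 3 (9 regulators higher, 1 lower in the lists) and without WT library 1 (544 and 830 over all genes, 7 regulators higher, 7 and 1 in the lists). Without both cKO 3 and WT 1, chosen after seeing the data, 4 regulators were higher and 2 lower, 369 and 624 of all genes and 1 and 1 of the lists; this leaves fewer samples. In the lists, 24 were higher with voom on recovered reads, 2 lower with plain moderation and 7 lower with the exon length and GC correction. The cause of these differences was not tested.

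Same-numbered cKO and WT libraries correlated at -0.046, 0.0998 and -0.048 in their deviations from the group means. The libraries with Y-linked reads, cKO 3 and WT 1, correlated at 0.206. Correlations of so few libraries cannot decide whether the numbers pair them. With a replicate block, 15 regulators were higher (Elavl2 gained a call, adjusted p 0.0299) and 4 lower, and 1274 and 1541 of all genes; with the block and the exon length and GC correction, 9 were higher and 5 lower.

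Genes that changed sign were all uncalled. With quantile scaling, Celf2 was at 0.058, Elavl3 at 0.098, Hnrnpa0 at 0.084, Rbm39 at 0.047 and Sf3b2 at 0.017. Elavl3 was at 0.0015 with voom. With exon length and GC corrected, with or without the block, Mbnl2 was at -0.053, Mbnl3 at -0.0085 and Ptbp2 at -0.031. Celf2 was at 0.0075 without both cKO 3 and WT 1. Without single libraries, Celf2 ranged from -0.040 to 0.0095, Elavl3 from -0.040 to 0.013, Mbnl2 from -0.071 to 0.11, Rbm39 from -0.048 to 0.031 and Srsf4 from -0.073 to 0.0049. With 3 libraries a group, the 95% interval of a typical uncalled regulator reached 0.16 to either side of its log2 change.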
